A study of Rattus norvegicus with 11 samples.

Results

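Neutrophils carry their granule proteins in packages filled in a fixed order during maturation in the bone marrow. Azurophil granules with Mpo and Elane are loaded first, specific granules with Ltf, Lcn2, Camp, Ngp and Mmp8 next, and gelatinase granules with Mmp9 last. Transcription of the early genes is largely shut off before the cells enter the blood. S100a8 and S100a9, which pair as calprotectin, are instead made in large amounts in the cytosol and stay abundant in circulating neutrophils and monocytes.

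The 10 genes described here, S100a8, S100a9, Lcn2, Ngp, Camp, Ltf, Mmp8, Mmp9, Mpo and Elane, were chosen by name, and each stands on 1 of the 32623 gene rows of the table. RNA was sequenced from peripheral WBCs, the bulk leukocytes left after red cell lysis, of male Wistar rats given as 7 weeks old. A separate age at each draw is not given in the sources used here. CIA (collagen-induced arthritis) had been induced with collagen in incomplete adjuvant (IFA-CII), with a boost on day 7. Blood was drawn from each of 4 CIA rats on about day 8, when the authors' PCR found Nampt overexpressed (Nampt++ samples), and a second time near day 14, when Nampt was back at the level of controls (Nampt+ samples). The third group was 3 normal healthy controls. The comparisons asked which transcripts differed between the statuses and from healthy blood. A Nampt status is a class given to a blood sample by PCR and not a genetic change, and day and status moved together, so they cannot be told apart.

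The libraries held 65340027 to 85819418 counts each. Counting error was small beside the spread between samples for the 8 genes with a mean of at least 1 FPKM (fragments scaled by transcript length and by library size). Of these, Elane had the fewest counts, 56 to 1052. Haemoglobin genes took 6.84% to 42.8% of the counts, lowest in Nampt++ rat 1 and highest in Nampt+ rat 2. The deposited protocol for extraction speaks of retinas, whereas the sample source and treatment fields say leukocytes. The leukocyte markers were present in every sample, with Cd3g of T cells at 88.8 to 345 FPKM and Lyz2 of myeloid cells at 3978 to 13492 FPKM. In bulk RNA fewer cells of a type and less RNA per cell cannot be told apart.

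RefSeq promoters of the GRCr8 assembly, 250 bases before to 50 bases after the start site, were found for 7 of the 10 genes. Of these, 4 are shown because their transcripts followed different patterns across the samples (Mmp8 and S100a9 together, Lcn2 and Ngp apart from them). They were searched on both strands for TTGCNNAA, the core of sites for C/EBP factors, which direct granulocyte maturation, and for a short form of the NF-kappa B site, GGGA followed after any 4 bases by CC. Capitals mark matches. The regions are chr3:36081731-36082030 for Lcn2 and chr2:178490573-178490872 for S100a9, both on the minus strand, and chr8:119272355-119272654 for Ngp and chr8:13008640-13008939 for Mmp8, both on the plus strand.
Lcn2: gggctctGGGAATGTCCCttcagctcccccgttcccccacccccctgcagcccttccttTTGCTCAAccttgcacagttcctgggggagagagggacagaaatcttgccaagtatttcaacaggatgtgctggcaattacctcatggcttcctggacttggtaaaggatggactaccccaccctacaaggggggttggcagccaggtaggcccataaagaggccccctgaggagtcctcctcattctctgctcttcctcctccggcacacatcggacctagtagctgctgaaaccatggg
Ngp: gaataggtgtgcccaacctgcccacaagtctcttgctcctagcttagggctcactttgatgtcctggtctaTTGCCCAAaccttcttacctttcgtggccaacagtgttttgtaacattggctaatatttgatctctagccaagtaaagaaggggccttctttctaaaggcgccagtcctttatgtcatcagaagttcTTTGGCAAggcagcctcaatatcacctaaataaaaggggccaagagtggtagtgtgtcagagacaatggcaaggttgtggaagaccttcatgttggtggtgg
Mmp8: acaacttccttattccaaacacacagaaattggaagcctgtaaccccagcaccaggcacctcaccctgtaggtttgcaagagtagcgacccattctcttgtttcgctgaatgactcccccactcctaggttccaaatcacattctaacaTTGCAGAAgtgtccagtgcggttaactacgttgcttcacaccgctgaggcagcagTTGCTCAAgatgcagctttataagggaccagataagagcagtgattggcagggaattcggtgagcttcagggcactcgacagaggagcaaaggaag
S100a9: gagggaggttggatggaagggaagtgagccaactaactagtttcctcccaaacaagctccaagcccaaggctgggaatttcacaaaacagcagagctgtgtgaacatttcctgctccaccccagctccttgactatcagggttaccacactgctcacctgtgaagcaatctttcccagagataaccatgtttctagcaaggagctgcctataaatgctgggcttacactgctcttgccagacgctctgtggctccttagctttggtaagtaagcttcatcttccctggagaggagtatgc

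Lcn2 was the 1 promoter of the 7 with both motifs upstream of its start site. Its C/EBP core began at base -191 and its NF-kappa B match at base -243, where a match on the other strand overlapped it by all but 1 base. Ngp held TTGCCCAA at -179 and, as the reverse complement TTTGGCAA, a second at -52, and Mmp8 held TTGCAGAA at -101 and TTGCTCAA at -46. The S100a9 window held neither motif. Among the promoters not shown, Camp held GGGACGTCCC at base 19 downstream of the start, matched on both strands, and Ltf and Mpo held neither motif. The C/EBP core was present in 10.6% of all 33469 promoters and the NF-kappa B letters in 19.3%, so single matches are common. A match is a string of letters and not a site shown to be bound.

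Calprotectin stood above the other genes in every sample and Mpo and Ltf below them, while the ranges of the genes between overlapped. By mean FPKM over the 11 samples, S100a9 (7669) and S100a8 (3237) led, Mmp8 (144), Mmp9 (62.9), Lcn2 (52.5), Camp (33.7) and Ngp (18.9) followed, and Elane (3.30), Mpo (0.0822) and Ltf (0.0527) were last. S100a9 stood above S100a8, S100a8 above Mmp8, and Mmp8 above Mmp9 in each of the 11 samples. The order of Mmp9, Lcn2 and Camp changed from sample to sample, and their ranges overlapped. Camp stood above Ngp in each sample, with Ngp at 0.272 to 0.934 of the Camp FPKM. FPKM is scaled by transcript length, so these levels can be set beside each other.

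**Figure D1:**
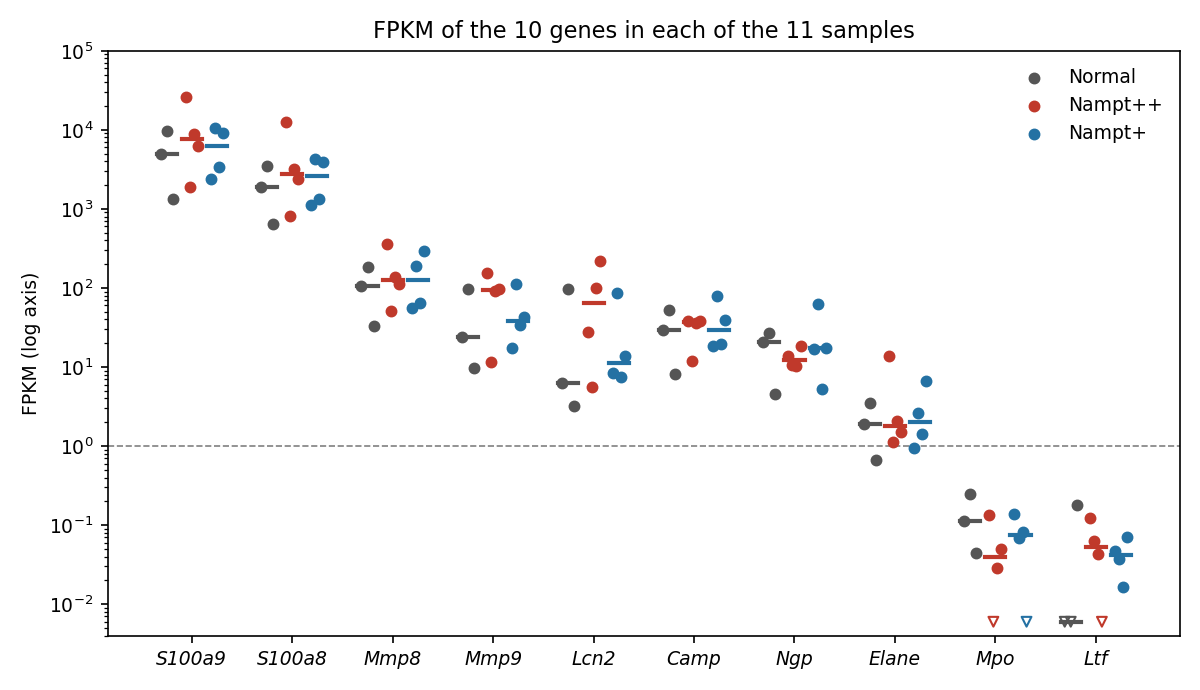
FPKM on a log axis of the 10 genes, ordered by mean level, in each sample of normal healthy controls (3), Nampt++ samples (4) and Nampt+ samples (4). Points are samples, short lines are group medians, open triangles at the bottom are samples listed at 0, and the dashed line is 1 FPKM; in every gene the 3 groups overlap, and Mpo and Ltf stay under 0.25 FPKM.

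S100a9 (chr2:190097554-190100276, minus strand; all positions of genes are as deposited, and their build is not given in the sources used here) encodes the larger subunit of calprotectin, a calcium- and zinc-binding complex released by activated neutrophils. Its FPKM was 4912, 9788 and 1323 in controls 1 to 3. It was 25724, 1903, 8946 and 6249 in Nampt++ rats 1 to 4, and 2364, 10491, 3410 and 9244 in the same rats at Nampt+ status. The highest and the second lowest value both came from Nampt++ samples, and each group spanned the medians of the others. S100a9 was the 3rd most abundant transcript of Nampt++ rat 1 and the 82nd of control 3.

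S100a8 (chr2:190073815-190074354, plus strand) encodes the partner subunit and lies beside S100a9. Its FPKM was 1892, 3532 and 638 in controls, 12479, 822, 3174 and 2414 in Nampt++ samples, and 1116, 4321, 1341 and 3876 in Nampt+ samples. Nampt++ rat 1 was again far above the rest, and Nampt++ rat 2 below all samples but control 3. The ratio of S100a9 to S100a8 FPKM stayed within 2.06 to 2.82 while each gene varied more than 19-fold (19.6 for S100a8 and 19.4 for S100a9). Together they took 0.0981% of all counts in control 3 and 1.903% in Nampt++ rat 1, and 83.6% to 92.7% of the counts of the 10 genes in every sample.

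Among the azurophil genes, Mpo (chr10:75087892-75098260, plus strand), the peroxidase that makes hypochlorous acid, was nearly silent in all 11 samples. Its counts ran from 0 in Nampt++ rat 2 and Nampt+ rat 4 to 65 in control 2, which was 0.246 FPKM. A count of 0 allows up to 3 counts in those libraries, or 0.0367 and 0.0419 CPM (counts scaled to the library total). Mpo fell under the limit of 1 FPKM and was not tested.

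Elane (chr7:12638322-12640232, minus strand), the neutrophil elastase gene, was low but measured, at 1.88, 3.46 and 0.669 FPKM in controls, 13.9, 1.14, 2.10 and 1.49 in Nampt++ samples, and 0.950, 2.60, 1.44 and 6.63 in Nampt+ samples. Nampt++ rat 1 stood apart from the other 3 Nampt++ samples, and the groups overlapped. All 1911 bases of the Elane span lie within the span listed for Arhgap45 on the same strand, which stood at 86.1 to 214 FPKM, so some Elane reads may belong to Arhgap45 and the Elane values are uncertain. Elane counts were 0.0872 to 1.60 per 100 Arhgap45 counts, so their ratio was not constant. Prtn3, a granule protease gene that lies 3284 bases away, reached 0.349 FPKM at most.

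The specific granule genes fell into 3 kinds. Ltf (chr8:119290416-119313261, plus strand), encoding the iron-binding lactoferrin, was listed at 0 in controls 1 and 2 and in Nampt++ rat 4, and its highest count was 43, in control 3, at 0.180 FPKM. The 3 counts that a 0 allows came to 0.0350 to 0.0459 CPM in those libraries. Like Mpo, it was not tested.

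Mmp8 (chr8:5768811-5778702, plus strand), the neutrophil collagenase, had 106, 185 and 33.5 FPKM in controls, 357, 51.8, 137 and 113 in Nampt++ samples, and 55.0, 187, 64.2 and 296 in Nampt+ samples. It ranked the samples much as calprotectin did, with Nampt++ rat 1 highest and control 3 lowest. S100a8 stood at 13.1 to 35.0 times the Mmp8 FPKM.

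Lcn2 (chr3:11414186-11417546, minus strand) encodes lipocalin 2, which starves bacteria of iron by binding siderophores. Its FPKM was 6.37, 96.5 and 3.24 in controls, 28.1, 5.64, 101 and 221 in Nampt++ samples, and 8.48, 86.2, 7.43 and 13.8 in Nampt+ samples. Control 2, Nampt++ rats 3 and 4 and Nampt+ rat 2, samples of all 3 groups, held at least 86.2 FPKM, and the other 7 samples at most 28.1. Its highest value was 68.1 times its lowest, the widest range of the 8 genes, and as a percentage of S100a8 FPKM it went from 0.225 in Nampt++ rat 1 to 9.15 in Nampt++ rat 4.

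Camp (chr8:117930546-117932518, minus strand), the precursor of the antimicrobial peptide cathelicidin, had 29.7, 52.3 and 8.21 FPKM in controls, 37.9, 11.8, 35.9 and 37.9 in Nampt++ samples, and 18.3, 79.5, 19.5 and 39.2 in Nampt+ samples. Nampt++ rat 1, which was extreme in calprotectin, was level with rats 3 and 4 here. Its 9.69-fold range was the narrowest of the 8 genes.

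Ngp (chr8:118662335-118665699, plus strand), the cystatin-like neutrophilic granule protein made at the myelocyte stage, had 20.8, 27.2 and 4.58 FPKM in controls, 13.9, 10.7, 10.2 and 18.6 in Nampt++ samples, and 17.1, 62.2, 5.31 and 17.2 in Nampt+ samples. The Nampt++ samples lay within a 1.83-fold range, the tightest of any group among the 8 genes, and inside the ranges of both other groups. Ngp amounted to 0.112% of S100a8 FPKM in Nampt++ rat 1 and 1.53% in Nampt+ rat 1, with the 2 samples of the same animal at the ends of that range.

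Mmp9 (chr3:161413298-161421520, plus strand), gelatinase B and the single gelatinase granule gene of the set, had 24.0, 96.8 and 9.60 FPKM in controls, 155, 11.6, 92.3 and 96.6 in Nampt++ samples, and 17.2, 112, 34.4 and 42.4 in Nampt+ samples. In 3 of 4 Nampt++ samples it was above 92 FPKM, as it was in control 2 and Nampt+ rat 2. Nampt++ rat 2 and control 3 were the lowest.

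In the comparison of Nampt+ with Nampt++ samples, 0 of the 8 genes tested were called, where a call needs mean FPKMs that differ by more than 2-fold in either direction and, in edgeR's quasi-likelihood test, p under 0.05 before adjustment. The fit had no term for the rat, so samples of the same rat were treated as independent. Over all 11219 genes tested 0.642% were called, and 2.28% had an unadjusted p under 0.05, against 0 of the 8 genes. No gene of the table passed an adjusted p of 0.05 in edgeR (lowest 0.9996), whereas DESeq2 passed 5 genes and none of the 8, and limma on log2(FPKM + 1) passed 0. Between these groups 0.41% of the tested genes did not overlap, and 0 of the 8 did so.

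The fitted log2 differences of Nampt+ minus Nampt++ were -0.45 (SE 0.86) for S100a8 and -0.37 (SE 0.83) for S100a9, and rested on 1 animal: without Nampt++ rat 1 they were 0.64 and 0.49. Lcn2 was at -0.89 (SE 1.23), and without Nampt+ rat 2 it was called, at -3.22, whereas without Nampt++ rat 4 it was at -0.069. Leaving out Nampt+ rat 2 also took the genes called over the whole table from 72 to 165, with all 8 members fitted lower. Mmp9 was at -0.28 (SE 0.86) and Elane at -0.51 (SE 0.89), and both changed sign without Nampt++ rat 1, to 0.12 and 0.95. Mmp8 was at 0.13 (SE 0.72), and at -0.14 by limma on log2(FPKM + 1).

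Ngp was at 1.47 (SE 0.82, unadjusted edgeR p 0.106, adjusted p 0.9996). Its value depended on the fit: it was 0.44 both with the rat as a block and by limma on log2(FPKM + 1), where Lcn2 was at -2.15 and -1.35. Its Nampt+ mean was 25.5 ± 25.1 FPKM (SD, n = 4), against 13.4 ± 3.86 FPKM (SD, n = 4) for Nampt++. The difference was called without Nampt+ rat 3, at 1.84, where 81 genes were called over the whole table. It was -0.12 without Nampt+ rat 2. Camp was at 0.80 (SE 0.69), and at -0.39 without Nampt+ rat 2.

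Within animals the direction depended on the rat. From Nampt++ to Nampt+ status S100a8, S100a9, Camp, Mmp8 and Elane were lower in rats 1 and 3 and higher in rats 2 and 4. The log2 ratio of S100a8 FPKM was -3.48 in rat 1, 2.39 in rat 2, -1.24 in rat 3 and 0.68 in rat 4. Lcn2 was lower in rats 1, 3 and 4, with log2 ratios of -1.73, -3.76 and -4.01, and higher in rat 2, with 3.93. Mmp9 was lower in the same 3 rats (-3.17, -1.42 and -1.19) and higher in rat 2 (3.27), and Ngp was higher in rats 1 and 2 (0.30 and 2.54) and lower in rats 3 and 4 (-0.94 and -0.11). With the rat as a block in the edgeR fit, 0 of the 8 genes were called.

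**Figure D2:**
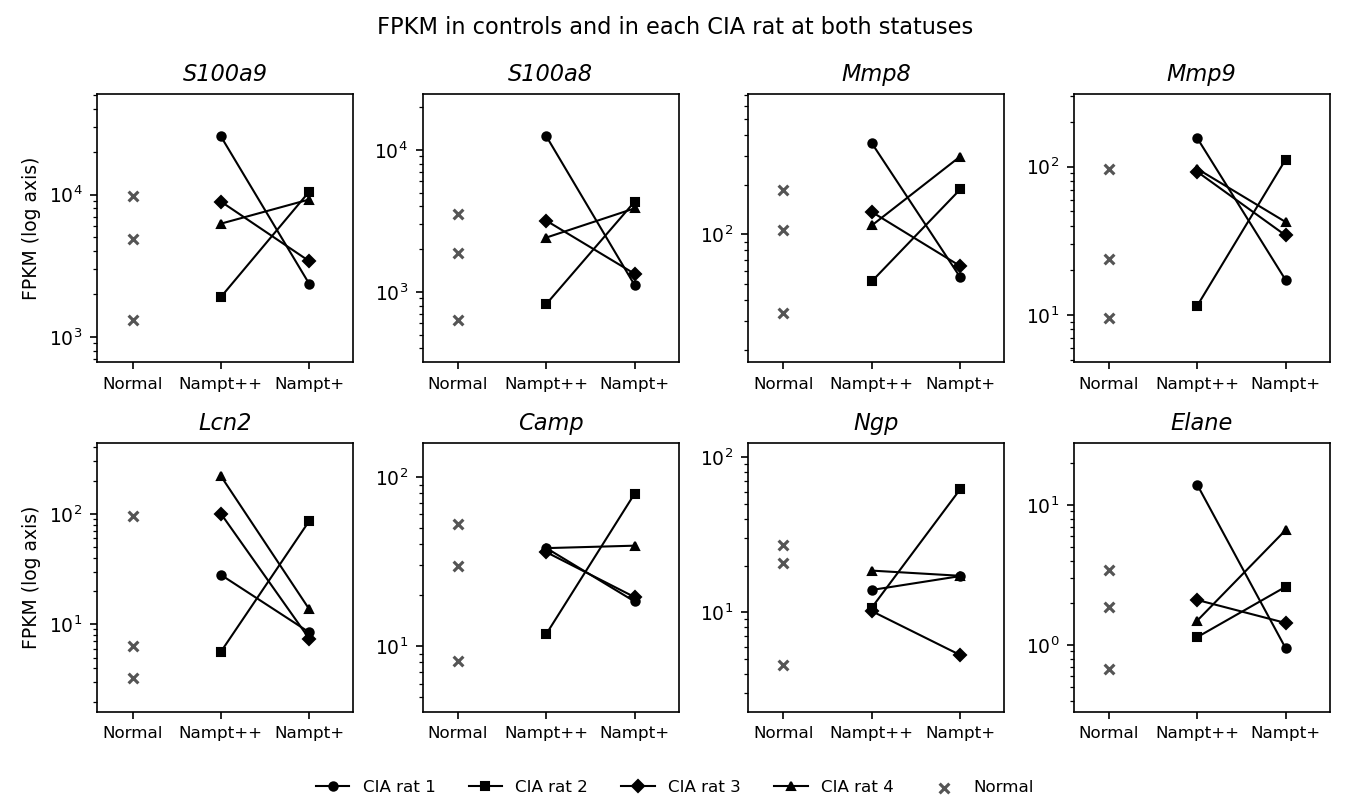
FPKM on a log axis of the 8 tested genes in the 3 normal healthy controls (crosses) and in each CIA rat at Nampt++ and Nampt+ status (symbols joined by lines, 1 symbol per rat). The lines of rats 1 and 2 cross in every gene, and rat 2 rises in all 8; Lcn2 and Mmp9 fall in rats 1, 3 and 4.

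Nampt++ samples were then set beside normal healthy controls, which asks how the early status differed from healthy blood. Again 0 of the 8 genes were called, beside 0.686% of 11219 genes tested, and 0 of the 8 were without overlap, beside 1.1% of all. An unadjusted edgeR p under 0.05 was reached by 1.57% of all genes and by 0 of the 8, and an adjusted p under 0.05 by 0 genes in edgeR (lowest 0.99992) by 0 in limma and by 5 in DESeq2, none of them among the 8.

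S100a8 averaged 4722 ± 5263 FPKM (SD, n = 4) at Nampt++ status and 2021 ± 1451 FPKM (SD, n = 3) among controls, a ratio of 2.34 whose SD in Nampt++ samples exceeded their mean. The fitted log2 differences were 0.94 (SE 0.96) for S100a8 and 0.71 (SE 0.96) for S100a9, and without Nampt++ rat 1 they were -0.15 for both. Elane was at 0.94 (SE 1.02) and at -0.53 without that rat. Mmp8 was at 0.34 (SE 0.78), Camp at -0.23 (SE 0.68; 0.23 by limma) and Ngp at -0.62 (SE 0.60).

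Lcn2 and Mmp9 depended on single libraries in that comparison. Lcn2 was at 0.88 (SE 1.43) and Mmp9 at 0.68 (SE 0.99) with all samples. Without control 2 both were called, at 4.18 for Lcn2 and 2.40 for Mmp9, while the number of genes called over the whole table went from 77 to 462. Without Nampt++ rat 4, on the other hand, Lcn2 was at 0.039, and without control 3 Mmp9 was at 0.17. Leaving out control 2 thus moved the comparison beyond the granule genes.

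Between Nampt+ samples and controls 0 of the 8 genes were called, beside 0.497% of 11269, and 0 were without overlap, beside 0.444%. An unadjusted edgeR p under 0.05 was reached by 0.87% of all genes and 0 of the 8, and an adjusted one by 0 genes in edgeR (lowest 0.203 over the table, and 0.99999 for each of the 8), 0 in limma with a pseudocount of 1 and 4 in DESeq2, none of them among the 8. The fitted log2 differences were 0.48 (SE 0.89) for S100a8, 0.33 (SE 0.94) for S100a9, 0.46 (SE 0.87) for Mmp8, 0.40 (SE 1.09) for Mmp9 and 0.42 (SE 0.85) for Elane. Camp was at 0.57 (SE 0.95), Ngp at 0.85 (SE 1.10) and Lcn2 at -0.02 (SE 1.52; 0.30 by limma). Without Nampt+ rat 2, 7 of the 8 fitted differences were negative, against 1 with it. The comparisons share samples, so their values are not independent of each other.

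**Figure D3:**
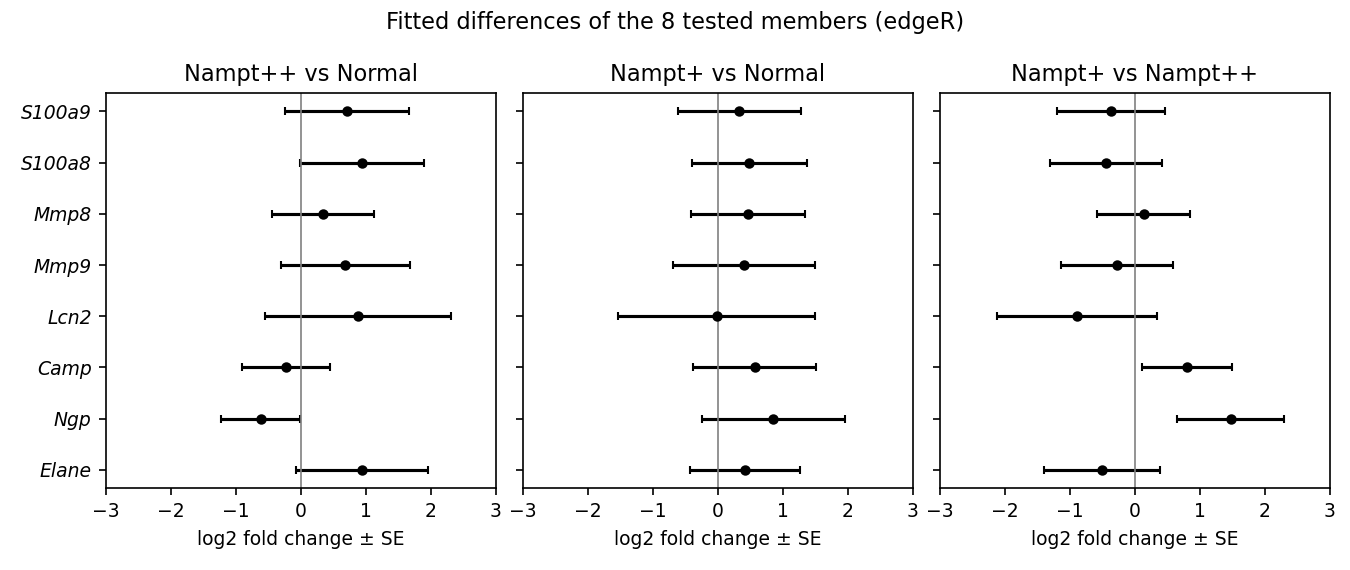
Fitted log2 fold change (points) with its standard error (bars) of the 8 tested genes in the 3 comparisons, by edgeR on the counts. None passed the test, and S100a8 and S100a9 lie side by side in each panel. In the Nampt+ against Nampt++ panel Ngp, Camp and Mmp8 lie on the other side of 0 from them, though Mmp8 changes sign by limma. In the Nampt++ against Normal panel Ngp and Camp do so, though Camp changes sign by limma there.

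Other genes of circulating neutrophils varied between the same samples. A list of 27 such genes, of which 25 were found and 23 had a mean of at least 1 FPKM, covers chemokine and chemoattractant receptors, Fc receptors and kinases of mature cells. Its most abundant members were Il1b, the cytokine interleukin-1 beta, at 2437 FPKM on average, and Il1r2, its decoy receptor, at 640. The mean log2(FPKM + 1) of the 23 genes went from 4.89 in control 3 to 7.41 in Nampt++ rat 1, the same samples that bounded S100a8. In the comparisons 0 of the 23 were called: 5 were fitted higher and 18 lower in Nampt+ than in Nampt++ samples (median log2 difference -0.25), all 23 higher in Nampt++ samples than in controls (0.56), and 21 higher and 2 lower in Nampt+ samples than in controls (0.36). The median over all tested genes was 0.00 in each comparison. These genes were measured in the same samples, so their directions are not independent of each other. The mean of the 23 genes overlapped between groups, at 4.89 to 6.48 in controls, 5.16 to 7.41 in Nampt++ samples and 5.26 to 6.83 in Nampt+ samples. The directions without Nampt++ rat 1, the highest sample, were not counted.

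Subtracting that mean from each gene showed which members moved with the mature cells' genes. The SD over the 11 samples went from 1.24 to 0.57 on the log2 scale for S100a8, from 1.27 to 0.58 for S100a9 and from 1.08 to 0.46 for Mmp8. It went from 1.37 to 0.76 for Mmp9, from 0.93 to 0.48 for Elane and from 0.92 to 0.60 for Camp. Lcn2 kept most of its spread, 1.62 of 1.99, and that of Ngp was not reduced at all, at 1.04 against 0.98. Relative to the list, Lcn2 was highest in Nampt++ rat 4 and lowest in Nampt+ rat 3, and Ngp highest in Nampt+ rat 2 and lowest in Nampt++ rat 1. After the subtraction the groups still overlapped, with mean Ngp differences of -2.60 ± 0.91 for Nampt++ (SD, n = 4), -1.86 ± 1.44 for Nampt+ (SD, n = 4) and -1.80 ± 0.55 for controls (SD, n = 3).

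**Figure D4:**
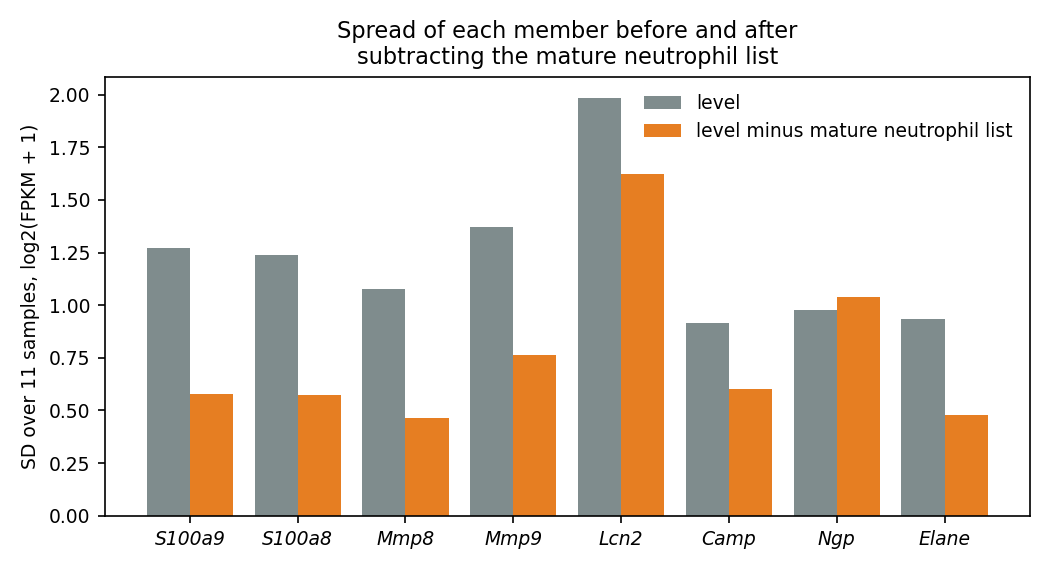
SD over the 11 samples of log2(FPKM + 1) of each gene (grey bars) and of its difference from the mean of 23 mature neutrophil genes (orange bars). The bar of S100a8 goes from 1.24 to 0.57, whereas that of Lcn2 goes from 1.99 to 1.62 and that of Ngp from 0.98 to 1.04.

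The genes listed as immature, Mpo, Elane, Ltf, Lcn2, Camp and Ngp, were set against the mature neutrophil genes sample by sample. The measure was the difference of mean log2(FPKM + 1), here over all 25 mature genes found. It was -2.98, -2.70 and -3.03 in controls, -3.78, -2.90, -3.32 and -2.74 in Nampt++ samples, and -2.69, -2.30, -3.67 and -3.56 in Nampt+ samples. Group means were -2.90 ± 0.18 (SD, n = 3), -3.18 ± 0.47 (SD, n = 4) and -3.05 ± 0.67 (SD, n = 4), and the ranges of all 3 groups overlapped. Nampt++ rat 1 had the lowest and Nampt+ rat 2 the highest difference. Mmp8, also a specific granule gene, was not on the immature list, and the difference with it included was not computed. Its SD had gone from 1.08 to 0.46 on subtracting the mature genes. That of Elane, which is on the immature list, had likewise gone from 0.93 to 0.48, and some Elane reads may belong to Arhgap45. Mpo and Ltf reached 0.246 and 0.180 FPKM at most, and Lcn2 kept 1.62 of its SD of 1.99. Whether the difference measures the maturity of the cells was not tested. With all genes under a mean of 1 FPKM left out of both lists, Mpo and Ltf of the one and Cxcr1 and Tnfaip6 of the other, the lowest was Nampt+ rat 3 (-3.23) and the highest again Nampt+ rat 2 (-1.10).

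**Figure D5:**
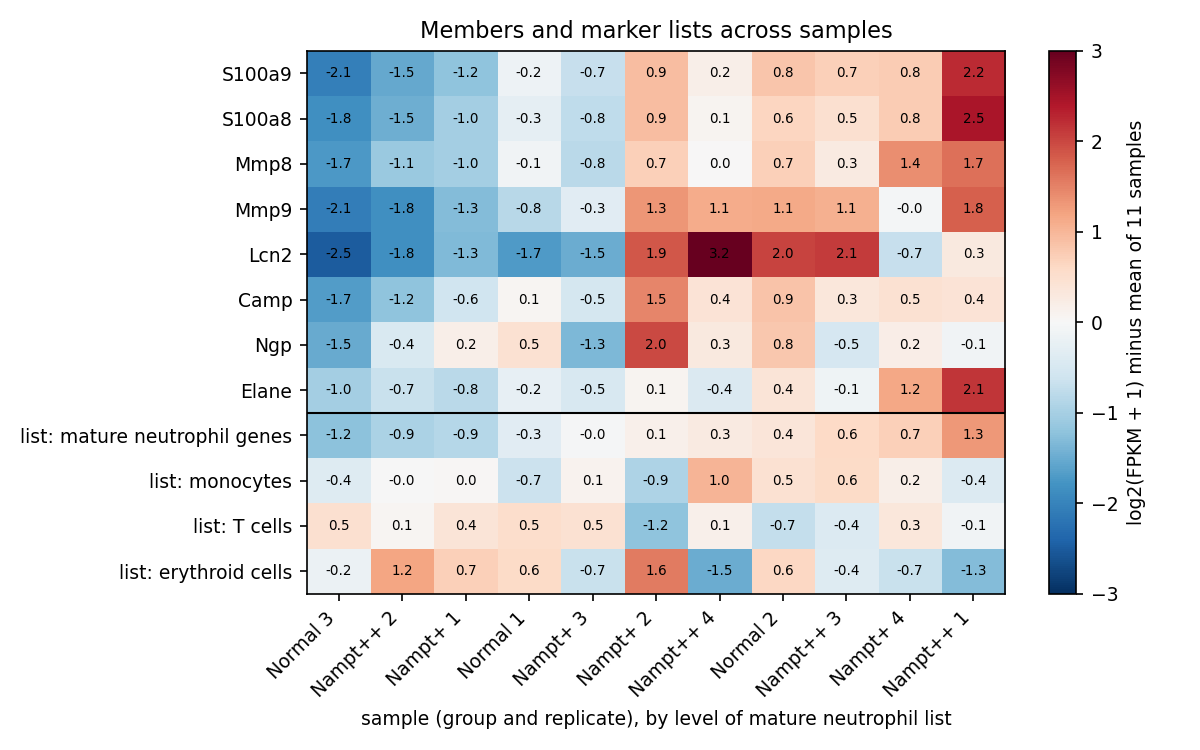
Log2(FPKM + 1) minus its mean over the 11 samples for the 8 tested genes (above the line) and for the means of 4 marker lists (below it), with samples ordered by the mature neutrophil list; red is higher, blue lower. S100a9, S100a8, Mmp8 and Elane deepen toward Nampt++ 1, Lcn2 peaks in Nampt++ 4 (3.2), and Ngp in Nampt+ 2 (2.0).

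Of 30 genes listed under other granule proteins, 29 were found and 20 tested, and 0 were called in each comparison. They were fitted 5 higher and 15 lower in Nampt+ than in Nampt++ samples, and 18 higher and 2 lower in each CIA group than in controls. Here too the directions are not independent of each other. The most abundant were Lyz2, encoding lysozyme, at 8098 FPKM on average, Srgn, the proteoglycan that packs granule contents, at 529, and Slpi, an inhibitor of elastase, at 495. Some genes of the list were near 0 like Mpo, as was seen after looking at the values. Prtn3 had at most 31 counts, Ctsg at most 4, Prss57 at most 22, and Ms4a3 and the defensin gene Defa24 none. Elane, the other azurophil gene of the set, reached 13.9 FPKM, with the doubt given above about Arhgap45 reads. The defensin genes Np4 and Defa5 reached 57 and 58 counts.

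Calprotectin's relatives, receptors and inhibitors were also examined. Of 11 other S100 genes, 6 were tested in the first comparison and 5 in the others, with 0 called, and S100a11, S100a10 and S100a4 were the most abundant at 501, 303 and 303 FPKM. Among 8 receptors and partners of calprotectin and lipocalin 6 were found and 4 tested, with 0 called; Cd14, a co-receptor for bacterial products, averaged 96.4 FPKM, Cd33, a sugar-binding receptor of myeloid cells, 19.6 and Slc22a17, a lipocalin 2 receptor, 6.03. Tlr4, a receptor for calprotectin, averaged 0.548 FPKM and was not tested. Of 11 inhibitors of granule proteases 7 were tested and 0 called, the most abundant being Cst3 (693 FPKM), Slpi (495) and Stfa2 (310), which encode protease inhibitors.

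Transcription factors of granulocyte development differed widely in level. Of 10 such genes 8 were tested and 0 called in any comparison. Cebpb, Spi1 and Cebpa averaged 411, 145 and 30.1 FPKM, whereas Cebpe, which drives specific granule genes, averaged 1.40 and Gfi1 4.21, both named after their values were seen. In Nampt+ against Nampt++ samples the fitted log2 differences were -0.94 (SE 0.50, unadjusted edgeR p 0.0942) for Cebpa and, named after its value was seen, -1.49 (SE 0.68, unadjusted edgeR p 0.0577) for Cebpd.

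Markers of other cells moved across samples as well, and their part in the values above was not tested. The 8 T cell genes, all detected, summed to 498 to 1222 FPKM in controls, 613 to 963 in Nampt++ samples and 349 to 1107 in Nampt+ samples, lowest in Nampt+ rat 2, where Ngp and Camp were highest. The 8 monocyte genes found of 9 summed to 4233 to 10737, 5731 to 12878 and 5449 to 13849 FPKM in the same order of groups, with Lyz2 on both this list and that of granule proteins. The 5 erythroid genes found of 9 summed to 40405 to 76390, 14609 to 97004 and 36328 to 113993 FPKM, again highest in Nampt+ rat 2. Eosinophil genes were low, at 17.4 FPKM in sum at most, with Epx at 0.520 FPKM at most. Over these and the B cell, NK cell, platelet, basophil and cell division lists, 3 genes outside the granule set were called: Ube2c of dividing cells (log2 difference 1.31 in Nampt+ against Nampt++ samples and -1.05 in Nampt++ samples against controls), Ms4a2 of basophils and mast cells (1.94 in Nampt+ against Nampt++ samples) and Ppbp of platelets (-1.09 in Nampt++ samples against controls). Their adjusted edgeR p values were 0.9996 and 0.99992 in these comparisons. Tested in Nampt+ against Nampt++ samples were 8 T cell, 8 monocyte, 5 erythroid and 2 eosinophil genes. To these came 5 B cell, 6 NK cell, 6 platelet, 3 basophil and 5 cell division genes. In Nampt++ samples against controls the numbers were the same, with 2 basophil genes. Over all genes tested, 0.642% and 0.686% were called in these comparisons. Ube2c and Ms4a2 averaged 1.76 and 1.45 FPKM in the first, little above the limit of 1 FPKM.

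The genes whose patterns lay closest to those of the members were looked for among 4923 genes with a mean of at least 10 FPKM, by Pearson's r of log2(FPKM + 1) over the 11 samples, of which 8 are pairs from 4 rats. These r values are descriptions. For S100a8 they were Lilrb2, LOC103689942, Pglyrp1, Ceacam4 and AABR07044631 (r 0.985 to 0.988); Pglyrp1, a peptidoglycan-binding protein of specific granules, was also nearest to S100a9 (r 0.998). For Mmp9 they were Ptger2, a prostaglandin E2 receptor, Ifitm1, Upp1, Ncf4, a subunit of the phagocyte oxidase, and LOC100359515 (r 0.967 to 0.980).

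Lcn2 had other neighbours: AABR07051947, Batf, Limk2, Acod1 and Jdp2 (r 0.943 to 0.968). Batf and Jdp2 encode transcription factors of the AP-1 family, and Acod1 the enzyme that makes itaconate in activated myeloid cells. Acod1 ranged from 16.0 to 552 FPKM. Ngp had no neighbour as close: its nearest gene was Riok3, a protein kinase gene, at r 0.85, and Ftl1, the ferritin light chain gene, was among its 5 nearest at r 0.76. The nearest genes of Mpo, led by Egr1 (r 0.75), and of Ltf, led by LOC690468 (r 0.88), rest on values under 0.25 FPKM and cannot be read as patterns.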

How the data were processed

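Bulk RNA-seq of peripheral WBCs was analysed in 11 samples: Nampt++ (4), Nampt+ (4, the same rats) and normal healthy controls (3), grouped by their labels. Libraries were made from poly(A) RNA and read from both ends. The authors deposited raw counts per gene, used here for all tests, and the authors deposited FPKM, whose placeholder for 0 was read as 0. The submitters' processing notes name cutadapt 1.9, HISAT2 2.0.4 and StringTie 1.3.4; the genome build and the counting of reads shared by genes or strands are not given in the sources used here.

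Pairs of groups were compared with edgeR 4.0.16 (quasi-likelihood, TMM), on genes that averaged 1 FPKM or more in the samples compared, and adjusted p values are by Benjamini-Hochberg over all of these. The main fit had no term for the rat and so did not use the pairing of Nampt+ with Nampt++ samples. Calls took the study's thresholds, a more than 2-fold difference of mean FPKM (ratio above 2 or below 0.5) with p under 0.05 before adjustment. limma 3.58.1 on log2(FPKM + 1) or log2(FPKM + 0.1), DESeq2 1.42.0, other filters and scalings, haemoglobin genes left out, one fit of all groups, the rat as a block and leaving out each sample were alternatives. The edgeR fit was tested on simulated data with planted changes. Their spread between replicates was a fixed setting not taken from these samples, so the simulation does not show the power for the members. Genes named are the 10 members; of each other list up to 3 genes per comparison with the largest change among called genes averaging 10 FPKM or more, otherwise up to 3 with the highest mean FPKM; and for S100a8, Mmp9, Ltf and Mpo the 5 genes with the most similar pattern. The values of 1 gene that the rule names are not reported here. Other genes, and the similar genes of the other members, were chosen after their values were seen. The members and lists were chosen with earlier results of these data known.

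Nampt++ and Nampt+ samples of the same number come from one rat. Their deviations from the group means correlated over genes at -0.18, -0.19, 0.17 and 0.13 for rats 1 to 4. Controls share only a number with CIA rats. Replicates differed by more than counting error in every group. Total counts were 65340027 to 85819418, so precision is limited by how few rats there were. Promoters are from RefSeq (GRCr8), and their coordinates are not those of the deposited table.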

Additional observations from a re-analysis of the deposited data

Results flagged for a closer look

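In 20 groups of 4 samples (10 genes in Nampt++ and in Nampt+ samples), 3 held a sample farther from the others than Dixon's test allows at 95% (critical ratio 0.829), where about 1 in 20 groups is flagged by chance. That rate is for independent values with a normal spread. FPKM was used here without a log, and the groups share libraries and genes that vary together. The count of flags can therefore not be set against that rate. Lcn2 in Nampt+ rat 2 was at 86.2 FPKM, with the other 3 at 7.43 to 13.8 (ratio 0.920). Camp in Nampt++ rat 2 was at 11.8 FPKM, with the others at 35.9 to 37.9 (ratio 0.922). Elane in Nampt++ rat 1 was at 13.9 FPKM, with the others at 1.14 to 2.10 (ratio 0.925), in a gene whose span lies within that of Arhgap45.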

How the results depend on the processing

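Under the settings that kept all samples, no member was called, 203 of 213 fitted member differences kept their sign, and the median of all genes shifted by less than 0.1 on the log2 scale. The exceptions were Mmp8 in Nampt+ against Nampt++ samples (-0.14 by limma with either pseudocount, -0.033 with the replicate block), Elane there (0.031 with the block), Camp in Nampt++ samples against controls (0.23 and 0.25 by limma with pseudocounts of 1 and 0.1, 0.16 with the block) and Lcn2 in Nampt+ samples against controls (0.30, 0.38 and 0.61). The block, the rat between statuses and a mere number against controls, changed no call of a member. For Ngp in Nampt+ against Nampt++ samples the unadjusted p was 0.0471 by DESeq2, with a ratio of means under 2. Genes called over the table went from 72 to 295 with any count above 0 and to 19 at a mean of at least 10 FPKM in Nampt+ against Nampt++ samples; from 77 to 306 and 25, to 121 by DESeq2, to 145 and 140 by limma with pseudocounts of 1 and 0.1, and to 46 with the block in Nampt++ samples against controls; and from 56 to 261 and 14 in Nampt+ samples against controls. The causes were not tested, beyond the number of genes each filter admits.

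Leaving out 1 sample at a time, members called ranged from 0 to 1, 0 to 2 and 0 to 0 in Nampt+ against Nampt++, Nampt++ against control and Nampt+ against control comparisons, and genes called from 58 to 165, 53 to 462 and 49 to 136. In the same order the fitted log2 differences ranged from -1.27 to 0.64, -0.15 to 1.89 and -0.35 to 1.44 for S100a8; -1.21 to 0.49, -0.15 to 1.76 and -0.52 to 1.39 for S100a9; -3.22 to -0.069, 0.039 to 4.18 and -2.37 to 3.30 for Lcn2; and -0.12 to 1.84, -1.12 to 0.069 and -0.76 to 1.55 for Ngp. They ranged from -0.39 to 1.09, -0.72 to 0.70 and -0.63 to 1.50 for Camp; -0.37 to 0.79, -0.32 to 1.24 and -0.055 to 1.37 for Mmp8; -1.61 to 0.12, 0.17 to 2.40 and -0.95 to 2.12 for Mmp9; and -1.04 to 0.95, -0.53 to 1.86 and -0.073 to 1.34 for Elane. The calls were Lcn2 without Nampt+ rat 2, Ngp without Nampt+ rat 3, and Lcn2 and Mmp9 without control 2. In these fits 165, 81 and 462 genes were called over the whole table.

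The difference of immature from mature genes was highest in Nampt+ rat 2 in each setting tried: -2.95 with a pseudocount of 0.1, -2.89 without Lcn2, -1.10 without genes under 1 FPKM and -1.97 without Elane, a setting chosen after seeing the data. The lowest sample was Nampt+ rat 3 with the smaller pseudocount and without genes under 1 FPKM, and otherwise Nampt++ rat 1.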
